A study of Mus musculus with 60 samples.

Results

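Open chromatin that was found after every surgery, away from gene ends and without histone acetylation, was examined in the dorsal root ganglia of mice. A region was chosen by the readouts of 12 of the 16 deposited peak lists: it held an ATAC peak of each of the 4 surgeries, lay more than 5 kb from every end of a protein-coding gene and overlapped no H3K9ac and no H3K27ac peak of any surgery. Merging the 4 ATAC lists gave 368411 regions, of which 36917 held a peak of all 4 lists and 19539 of those lay beyond the distance limit. Of these, 11521 had no acetylation peak, which is 3.13% of all merged regions and 59.0% of the constitutive distal ones. They are called unacetylated constitutive sites here. The other 8018 constitutive distal regions, with an acetylation peak in at least 1 of 8 lists, and 236282 unacetylated distal regions open in only 1 to 3 ATAC lists served for comparison.

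The ganglia L4 to L6 of C57BL/6 mice aged 6 to 8 weeks were taken 24 hours after surgery. The surgeries were sciatic nerve axotomy (SNA), its sham operation (Sham), dorsal column axotomy of the spinal cord (DCA) and laminectomy alone (Lam); no transgene or drug is given in the labels. Each ChIP sample pooled 10 mice, with 2 samples per mark and surgery, and each ATAC sample was 1 mouse, with 3 per surgery. Each deposited list pools the replicates of its surgery, so no value below has a replicate error and no surgery was tested against another. Intervals cover the counting error over regions only, and neighbouring regions can share 1 broad peak.

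ATAC-seq marks DNA that a transposase can reach, as at promoters, enhancers and insulators where proteins displace nucleosomes. H3K9ac and H3K27ac are laid down by acetyltransferases at active promoters and enhancers, whereas H3K27me3 is the mark of Polycomb repression. Open DNA without acetylation is known from insulators bound by CTCF, from enhancers that are primed but not active, and from silenced developmental loci.

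The ganglion holds several cell types, and a region open in few cells cannot be told apart from one weakly open in many. All 8 sensory neuron markers (such as Isl1 and Scn10a) had an ATAC peak within 1 kb of a gene end in each list, while H3K9ac and H3K27ac peaks lay there for 1 to 3 of the 8. Of the 6 glial markers, 4 or 5 had an ATAC peak and 2 to 6 an acetylation peak. Of the 4 macrophage markers, 2 to 4 had an ATAC peak and 0 to 3 an acetylation peak. Of 4 markers of cell types foreign to the ganglion, 2 had an ATAC peak in each list and at most 1 an acetylation peak. The neuronal markers were thus open with few acetylation peaks, and the part of the cell mixture in the choice of sites was not tested.

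The sites are shown first through the few that overlap a RefSeq promoter window (GRCm38.p6, 250 bases before to 50 after an annotated start). The windows show what an unacetylated constitutive site looks like at a start of transcription that is not a gene end of a protein-coding gene. Capitals mark the E-boxes CAGCTG and CATCTG, read on both strands. The first is the window of the long noncoding RNA Gm26611 (chr9:88858718-88859017, plus strand), inside the ninth strongest site, and the second an internal start of Elavl2, which encodes a neuronal RNA-binding protein (chr4:91376421-91376720, minus strand).
Gm26611: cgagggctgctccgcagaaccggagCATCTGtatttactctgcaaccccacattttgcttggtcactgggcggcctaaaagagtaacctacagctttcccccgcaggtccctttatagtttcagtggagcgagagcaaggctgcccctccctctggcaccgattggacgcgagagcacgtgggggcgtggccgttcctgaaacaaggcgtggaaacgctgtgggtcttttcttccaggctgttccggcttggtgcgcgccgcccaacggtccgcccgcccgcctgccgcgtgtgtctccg
Elavl2: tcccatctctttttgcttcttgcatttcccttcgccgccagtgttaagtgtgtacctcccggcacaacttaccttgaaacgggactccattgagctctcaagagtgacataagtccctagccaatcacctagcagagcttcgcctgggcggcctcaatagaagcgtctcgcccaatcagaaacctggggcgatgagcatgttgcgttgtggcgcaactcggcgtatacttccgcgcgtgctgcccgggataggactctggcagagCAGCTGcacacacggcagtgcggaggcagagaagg

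The Gm26611 window had a GC content of 62.0% with 25 CpG, and the Elavl2 window 56.7% with 19 CpG. The site over the Gm26611 start (chr9:88858558-88859392) also spans a start of the opposite lncRNA 9330159M07Rik. Its deposited ATAC fold enrichment was 8.43 for Sham, 8.10 for SNA, 7.46 for Lam and 7.53 for DCA, and the nearest acetylation peak lay 149 kb away. The site at Elavl2 (chr4:91376295-91376818) had folds of 4.91, 5.72, 5.40 and 4.14 in the same order. No acetylation peak of any list lay within 1754 kb of it. It was thus open in all 4 lists at a neuronal gene with no acetylation call nearby, and it overlapped an H3K27me3 peak of SNA and Lam.

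A further pair of windows, the only ones at these sites, held the core consensus of CTCF, the insulator protein; capitals mark that match, together with the E-boxes. They belong to the lncRNA genes Gm11753 (chr11:119190497-119190796, minus strand) and Gm36126 (chr19:29684189-29684488, minus strand). In Gm11753 the CTCF match overlaps an E-box CATCTG read on the other strand.
Gm11753: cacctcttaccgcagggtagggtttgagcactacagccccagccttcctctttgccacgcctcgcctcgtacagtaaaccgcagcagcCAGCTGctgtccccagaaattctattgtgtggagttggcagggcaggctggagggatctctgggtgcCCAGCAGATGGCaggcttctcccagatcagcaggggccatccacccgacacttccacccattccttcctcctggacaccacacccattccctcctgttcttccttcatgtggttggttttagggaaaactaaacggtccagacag
Gm36126: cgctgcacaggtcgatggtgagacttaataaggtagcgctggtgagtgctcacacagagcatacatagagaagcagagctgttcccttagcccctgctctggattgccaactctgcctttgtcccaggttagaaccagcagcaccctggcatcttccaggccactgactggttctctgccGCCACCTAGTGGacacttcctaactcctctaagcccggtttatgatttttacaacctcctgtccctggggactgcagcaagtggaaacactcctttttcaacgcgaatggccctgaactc

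The core consensus occurred in 2 of 305 windows at the sites (0.656%, 95% Wilson interval 0.180 to 2.36), in 16 of 1227 windows at acetylated constitutive regions (1.30%) and in 0.558% of all 32817 windows. The difference between the sites and the acetylated regions was -0.65 percentage points (95% Newcombe interval -1.58 to 1.13). At this number of windows no difference was detectable. Motif matches at the ATAC summits were not analysed here, as that needs a genome sequence.

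The windows at the sites stood between closed and acetylated ones in base composition. They belonged to 204 lncRNA and 101 protein-coding starts of 264 genes, and their median GC content was 54.0%, against 59.0% at acetylated regions and 45.0% in the 13516 windows without an ATAC peak. The median number of CpG per window was 6, against 15 and 3. Over all windows the medians were 52.7% GC and 7 CpG, near those of the sites. The mix of starts differed, as lncRNA starts made up 509 of the 1227 acetylated windows and 7214 of the 13516 without a peak. The AP-1 site TGANTCA, the target of Jun and Fos dimers, was found in 8.20% of them (95% Wilson interval 5.61 to 11.8), in 5.79% at acetylated regions and in 7.81% of all windows. The E-box CATCTG was found in 22.6% (18.3 to 27.6), in 13.1% at acetylated regions (11.3 to 15.1), in 22.4% of windows without an ATAC peak and in 17.2% of all windows, and CAGCTG in 17.7%, 19.9% and 16.3%. The ETS site CCGGAAGT was found in 1.64% (0.702 to 3.78), in 3.83% at acetylated regions (2.89 to 5.06) and in 3.89% of all windows. For CATCTG alone among these the intervals of the sites and of the acetylated regions did not overlap, and a match is only a run of letters. In all 16 motifs were searched, and the mix of starts was not matched. Windows of 1 gene or of neighbouring starts can overlap, so the Wilson intervals over windows are too narrow.

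Of 1005 miRNA hairpins in the RefSeq table, 18 overlapped an unacetylated constitutive site and 18 an acetylated constitutive region. The miRNAs of neurons among them are shown with the seed, bases 2 to 8, in capitals, since miR-9 and miR-129 lay in sites with H3K27me3. These miRNAs were singled out after their values were seen. Sites of other hairpins, such as Mir7072 and Mir6391, also overlapped an H3K27me3 peak. Over all sites 53.9% overlapped one of at least 1 list and 2.12% one of all 4 lists, so the mark is not particular to the miRNAs shown.
miR-9-5p: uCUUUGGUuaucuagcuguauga
miR-9-3p: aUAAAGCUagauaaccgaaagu
miR-129-5p: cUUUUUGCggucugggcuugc
miR-134-5p: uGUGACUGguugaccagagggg

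The 4 seeds differ from each other. The site around Mir9-1 (chr3:88214142-88216109) had ATAC folds of 2.29 for Sham, 2.53 for SNA, 2.03 for Lam and 2.28 for DCA and overlapped an H3K27me3 peak in all 4 lists. The site around Mir129-2 (chr2:94241246-94241958) had folds of 1.87, 1.89, 1.95 and 1.80 and an H3K27me3 peak in Sham, SNA and Lam. Mir134, of a large imprinted miRNA cluster, lay in a site (chr12:109733873-109734446) with folds of 1.95, 1.71, 1.95 and 1.79 and an H3K27me3 peak in Lam and DCA. None of the 3 sites was strong, with no fold above 2.53.

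Strength of the ATAC peaks describes the members, since the peaks chose them. The deposited fold, the ratio of a peak over the background of the authors' caller, had a median of 2.12 for Sham, 2.20 for SNA, 2.06 for Lam and 2.12 for DCA. The acetylated constitutive regions had medians of 2.23, 2.35, 2.18 and 2.22, and the whole lists 1.98, 2.02, 1.92 and 1.96. Most sites were thus a little above the middle of each list, and few were strong. A fold of 4 or more was found at 81, 100, 57 and 64 sites, against 431, 585, 369 and 399 acetylated regions. When peaks were ranked by −log10 p within each list, the median mean rank over the 4 lists was 62453 for the sites and 45512 for the acetylated regions.

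**Figure D1:**
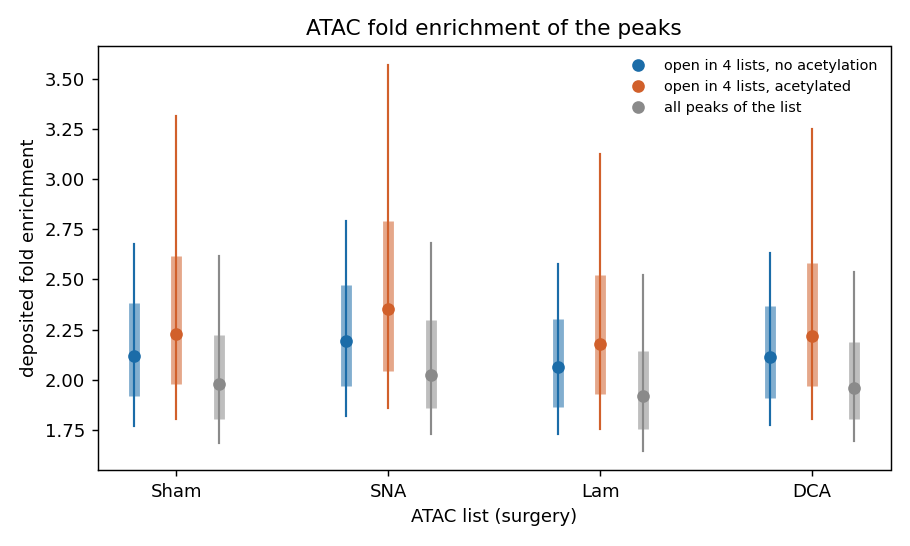
ATAC fold enrichment, as deposited and without unit, in each ATAC list (Sham, SNA, Lam, DCA) for unacetylated constitutive sites, acetylated constitutive regions and all peaks of the list. Points are medians, thick bars the middle 50% and thin lines the 10th to 90th percentile; in each list the median of the sites lies between that of the whole list and that of the acetylated regions.

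The 10 sites with the best mean rank include the strongest ATAC peak of the whole lists. The site chrX:143482940-143483175, 35.2 kb from Pak3, a kinase gene of Rac signalling, had folds of 31.4 (Sham), 28.3 (SNA), 28.3 (Lam) and 28.4 (DCA), which are the highest folds of the 4 lists. The second, chrX:87238286-87238491 inside Il1rapl1, a synaptic adhesion gene, had folds of 22.0, 23.0, 20.8 and 18.7. Both are short, at 236 and 206 bp, and in both the 4 summits lay within 1 bp of each other. Their nearest acetylation peaks lay 35.4 kb and 858 kb away. The other 8 of the 10 had folds between 5.27 and 12.3 and summits within 1 to 18 bp of each other. Their nearest protein-coding genes were LOC665918 on Y, Cd209a, Ddx18, Alkbh8, Jarid2, Tyrp1, Trim43c and Copg2. Those at Jarid2, a Polycomb cofactor gene, and at Copg2 lay inside the gene, 2.44 kb and 10.8 kb from an acetylation peak. Among the 10, 7 overlapped a Sham H3K27me3 peak, 3 one of SNA, 7 of Lam and 1 of DCA, beside 23.9%, 20.4%, 36.8% and 7.23% of all sites in the same order.

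Summits were less fixed over the whole set. The range of the strongest ATAC summit over the 4 lists had a median of 323 bp (95% interval 315 to 331), against 271 bp (263 to 278) at acetylated regions, which were also wider, with a median of 1058 against 964 bp. Within regions of 600 to 900 bp the medians were 238 and 192 bp. Among regions with a mean rank of 40000 to 80000 the order turned, with 324 bp at the sites and 351 bp at the acetylated regions. The strongest summits of the 4 lists thus often fell at different places of 1 region.

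The acetylation calls defined the set, and how near they came is given as description. The nearest acetylation peak lay a median of 17127 bp away; 832 sites (7.22%) had one within 1 kb, 2842 (24.7%) within 5 kb, 3607 (31.3%) beyond 50 kb and 277 beyond 1 Mb. Of the acetylated regions, 1473 (18.4%) had a peak in only 1 of the 8 lists and 1615 (20.1%) in all 8. The sites closest to the distance limit lay 5005, 5008 and 5010 bp from a gene end, at Gm4847, AU041133 and Tfap2b, and had mean ATAC folds of 2.32, 2.37 and 1.99. Just outside lay regions at 4985, 4985 and 4983 bp with mean folds of 1.83, 1.86 and 2.30, at Hs1bp3, Gm32436 and Rnf169.

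H3K27me3 peaks were not used to choose the sites. H3K27ac peaks were, and both marks sit on the same histone residue. The comparison with acetylated regions is therefore not independent of the choice. Peaks of this repressive mark overlapped 23.9% of the sites in the Sham list (95% Wilson interval 23.1 to 24.6), 20.4% in SNA (19.7 to 21.2), 36.8% in Lam (35.9 to 37.7) and 7.23% in DCA (6.77 to 7.72). The acetylated constitutive regions gave 10.6%, 4.43%, 16.8% and 1.11%. Over all merged ATAC regions, which were not matched to the sites in width, the shares were 16%, 14.2%, 23.1% and 6.5%. The sites held H3K27me3 more often than the acetylated regions in every list, by 13.3 percentage points in Sham (95% Newcombe interval 12.2 to 14.3), 15.98 in SNA (15.1 to 16.8), 20.0 in Lam (18.8 to 21.2) and 6.12 in DCA (5.60 to 6.65). The lists differ in how much they cover, 178 Mb for Sham, 173 Mb for SNA, 194 Mb for Lam and 91.4 Mb for DCA, so the shares are not compared between surgeries.

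The difference from the acetylated regions held at equal width and at equal ATAC rank. Against unacetylated distal regions open in 1 to 3 lists, the difference over all widths was 6.90 points for Sham, 3.77 for SNA, 12.2 for Lam and -0.97 for DCA, and it was not computed at equal rank. Among regions of 600 to 900 bp the Sham shares were 20.1% at the sites, 7.70% at acetylated regions and 21.0% at unacetylated distal regions open in 1 to 3 lists. At the same width the SNA shares were 17.9%, 2.97% and 19.9%, the Lam shares 30.1%, 12.4% and 32.2% and the DCA shares 6.20%, 0.975% and 8.96%. At this width, unacetylated sites open after every surgery did not hold H3K27me3 more often than those open after some. Among regions with a mean rank of 40000 to 80000 the sites exceeded the acetylated regions by 12.1 points for Sham, 13.9 for SNA, 18.2 for Lam and 4.98 for DCA.

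**Figure D2:**
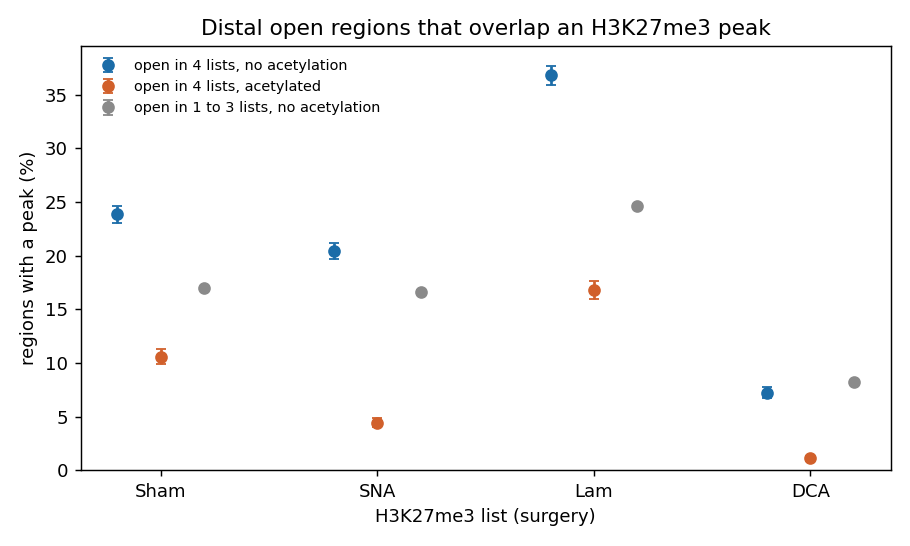
Percent of distal open regions that overlap an H3K27me3 peak, for each H3K27me3 list (Sham, SNA, Lam, DCA) and 3 sets of regions, with 95% Wilson intervals that cover counting error only. In each list the unacetylated constitutive sites lie above the acetylated ones, at 23.9% against 10.6% in Sham and 7.23% against 1.11% in DCA.

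Few peaks of the H3K27me3 lists passed a threshold of p of 0.001 or less, 1820 of 122953 for Sham, 552 of 141635 for SNA, 1322 of 154055 for Lam and 106 of 90011 for DCA. The peaks at the sites were thus weak as the lists are. Only 39 sites for Sham, 9 for SNA, 36 for Lam and 0 for DCA overlapped a peak past that threshold, and the acetylated regions gave 11, 2, 9 and 0. With that threshold the excess was 0.20 points in Sham and in Lam, and in SNA and DCA the interval held 0. No H3K27me3 peak of any list was found at 5311 sites (46.1%), against 75.6% of the acetylated regions. All 4 lists had one at 244 sites (2.12%), against 19 acetylated regions (0.237%). Over all merged regions, which were not matched to the sites in width, the share was 1.17%.

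Among the 244 sites with H3K27me3 in all 4 lists, the nearest gene was a zinc finger gene named Zfp, of a large family of DNA-binding proteins, for 29 (11.9%, 95% Wilson interval 8.40 to 16.5), against 1.64% of all 11521 sites. Most of the 29 belong to few genes: Zfp982 with 11, Zfp978 with 6, Zfp981 and Zfp993 with 3 each and Zfp992 with 2. Of these, Zfp978, Zfp982 and Zfp992 lie close together on chromosome 4. The interval treats sites as independent and is thus too narrow, and the share does not describe the Zfp family at large. Olfr161, an olfactory receptor gene, was nearest for 11 sites, all 11 of its sites, and Zfp982 for 11 of its 13. The cold receptor gene Trpm8 had 3 sites and all 3 carried the mark in each list; their folds were 1.63, 1.64 and 2.09 in Sham and 1.48, 1.71 and 2.24 in SNA. Gata4, a heart and endoderm factor, and Pou3f1, a glial and neural factor, each had 3 such sites of 5 and 9. These genes were named after their counts were seen, and sites of a cluster share a neighbourhood. By mean rank the leading 5 of the 244 were near Zfp213 (chr17:23518764-23519586, folds 5.29, 5.09, 4.98 and 4.85), inside Zfp992 (2 sites), inside Gm7827 and 8.86 kb from Zfp982.

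The densest 1 Mb held Zfp982 and other Zfp genes. The window chr4:147233564-148233563 had 39 sites and 2 acetylated constitutive regions among 241 merged regions. It spans 23 protein-coding genes, 8 of them named Zfp. H3K27me3 peaks of at least 1 list overlapped 36 of the 39 sites, and peaks of all 4 lists overlapped 17, beside 53.9% and 2.12% of all sites. The next windows held 38 sites at Ryr2 and Prl2c3 on chromosome 13, 38 at Dpp6 on chromosome 5, 33 at Msx1 and Evc on chromosome 5 and 32 at Camta1 on chromosome 4, with 0 to 4 acetylated regions each. Peaks of at least 1 H3K27me3 list overlapped 34, 24, 29 and 18 of them, and peaks of all 4 lists 8, 0, 2 and 1.

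Fewer of the sites than of the acetylated regions lay inside protein-coding genes. The share was 51.7% (95% Wilson interval 50.8 to 52.6) against 64.4% (63.3 to 65.4), a difference of -12.7 points (95% Newcombe interval -14.1 to -11.3). It was 49.8% for unacetylated distal regions open in 1 to 3 lists and 56.4% over all merged regions. The median distance to a gene end, which the rule limits from below, was 38203 bp at the sites and 22644 bp at acetylated regions.

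The genes with the most sites were long ones. The nearest gene was Dpp6, a potassium channel subunit, for 41 sites, Rbfox1, a splicing factor of neurons, for 36, and Grip1, a receptor scaffold, for 28. Camta1, Csmd1 and Tenm4 followed with 27 each. At Dpp6, 36 sites lay inside the gene, which is 910 kb long, and no acetylated constitutive region had it as nearest gene. The acetylated regions numbered 2 at Rbfox1, 0 at Grip1, 3 at Camta1 and 1 each at Csmd1 and Tenm4. H3K27me3 peaks overlapped 9 of the 41 Dpp6 sites for Sham, 10 for SNA, 16 for Lam and 5 for DCA, beside 23.9%, 20.4%, 36.8% and 7.23% of all sites. These genes were chosen for their number of sites, and a limit on the distance from gene ends favours long genes, so nothing is read from their length or from the balance. Over all genes that hold a site the median length was 83.7 kb, and 74.6 kb over those that hold an acetylated region, against 17.2 kb over all protein-coding genes.

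Gene lists of cell types and pathways were read by counting sites inside a gene or within 100 kb. Over all 21887 protein-coding genes 56.3% had at least 1 site, with 5.08 sites and 5.12 acetylated regions per Mb. A site near several genes counts for each, and a long gene has more room, so densities per Mb stand beside the counts.

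Genes of sensory neuron identity had the densest sites of the lists within 100 kb; within 10 kb they had 15.1 per Mb and the developmental transcription factors 15.7. Of 25 genes 20 had a site, with 13.9 sites per Mb against 5.88 acetylated regions. The mechanoreceptor channel gene Piezo2 had 15, Trpm8 had 13, the nociceptor sodium channel gene Scn10a 12, the neurotrophin receptor gene Ntrk3 11 and the GDNF receptor gene Ret 8. The same genes had 2, 1, 1, 4 and 1 acetylated regions. Some of these sites lie closer to another gene: Trpm8 was the nearest gene for 3 of its 13 sites and Scn10a for 5 of its 12. The genes named are those of the list with the most sites, and others went the other way. Prph had 0 sites and 5 acetylated regions, Ntrk2 had 0 and 4, Avil 1 and 5 and Nefh 2 and 3. Isl1 and Calca had neither. Of 30 developmental transcription factors 26 had a site, with 9.46 per Mb against 3.49 acetylated; Pax2 had 7, Gata4 and Pax7 had 6 each, and Lhx2, Pax6 and Nkx2-2 had 4 each. These factors direct early patterning of neural tube, eye or heart.

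Adhesion and guidance genes, which are long, had many sites at an average density. Of 33 such genes 24 had a site, with 5.08 per Mb, the density over all genes, against 0.584 acetylated regions per Mb. Csmd1 had 27, Cntnap2 and Tenm4 had 24 each, Robo2 had 23 and Cntn5 had 10, with 1, 1, 1, 0 and 0 acetylated regions.

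Of the other lists, the macrophage genes also had more sites than acetylated regions, and the rest had fewer or as many. Of 20 satellite glia and Schwann cell genes 10 had a site, with 5.07 per Mb against 7.61 acetylated regions. The myelin genes Mbp and Prx had the most, with 6 sites and 3 acetylated regions each, and Prx was the nearest gene for 0 of its 6. Sox10 had 0 sites and 6 acetylated regions, and Kcnj10 and Sox2 had 0 and 3 each. Of 29 regeneration-associated genes 18 had a site, with 4.06 per Mb against 7.36 acetylated regions, and Stmn2 and Hspb1 had 3 each. Of 27 Hox genes 13 had a site, with 2.48 per Mb against 6.55. Of 18 clustered protocadherins 16 had one, with 2.79 per Mb against 9.40. Each of these 16 had 1 site, and none of the 18 was the nearest gene of a site. The protocadherin genes overlap each other, so their values rest on a few regions counted repeatedly. Of 20 macrophage genes 14 had a site, with 6.25 per Mb against 2.80, Mrc1 having 5 and C1qa, C1qb, Spi1 and Tyrobp 3 each. Mrc1 was the nearest gene for 1 of its 5 sites, and C1qa, C1qb, Spi1 and Tyrobp for 0 of theirs. Within 10 kb the macrophage genes had 1.92 sites per Mb, against 4.68 over all protein-coding genes. Of 25 genes of other tissues 17 had a site, with 4.58 per Mb for sites and acetylated regions alike.

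**Figure D3:**
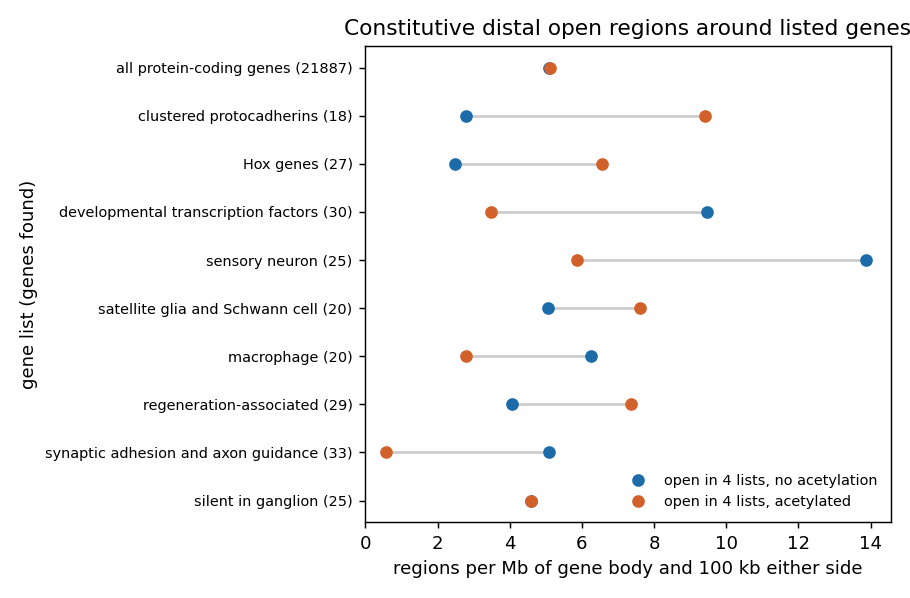
Unacetylated constitutive sites and acetylated constitutive regions per Mb of gene body and 100 kb on either side, for all protein-coding genes and for 9 gene lists (number of genes found in brackets), with no error bars since the lists have no replicates. Sensory neuron genes have 13.9 sites per Mb against 5.88 acetylated regions, while all genes have 5.08 against 5.12.

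Noncoding genes were not part of the rule, which used protein-coding gene ends only. An end of a noncoding gene lay within 1 kb of 10.1% of the sites (95% Wilson interval 9.55 to 10.6), of 13.7% of the acetylated regions and of 6% of all merged regions. The kinds of gene differed. Long noncoding RNA ends were near 4.37% of the sites, 11.1% of the acetylated regions and 4.09% of all regions. Pseudogene ends were near 2.94% (2.65 to 3.27), 1.09% and 1.23%. Transfer RNA genes were near 0.0781% and 0.461%.

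Small nucleolar RNA genes, whose products guide the modification of ribosomal RNA, were near the sites more often than near other regions. An end lay within 1 kb of 276 sites, 2.40% (95% Wilson interval 2.13 to 2.69), against 0.474% of the acetylated regions, 0.141% of the regions open in 1 to 3 lists and 0.225% of all merged regions. The difference from the acetylated regions was 1.92 points (95% Newcombe interval 1.60 to 2.24). It held among regions of 1200 to 1600 bp, where the shares were 5.31%, 0.754% and 0.747%. It also held by strength: below a mean rank of 20000 the shares were 5.26% at sites and 0.470% at acetylated regions, and between 60000 and 80000 they were 1.51% and 0.279%.

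**Figure D4:**
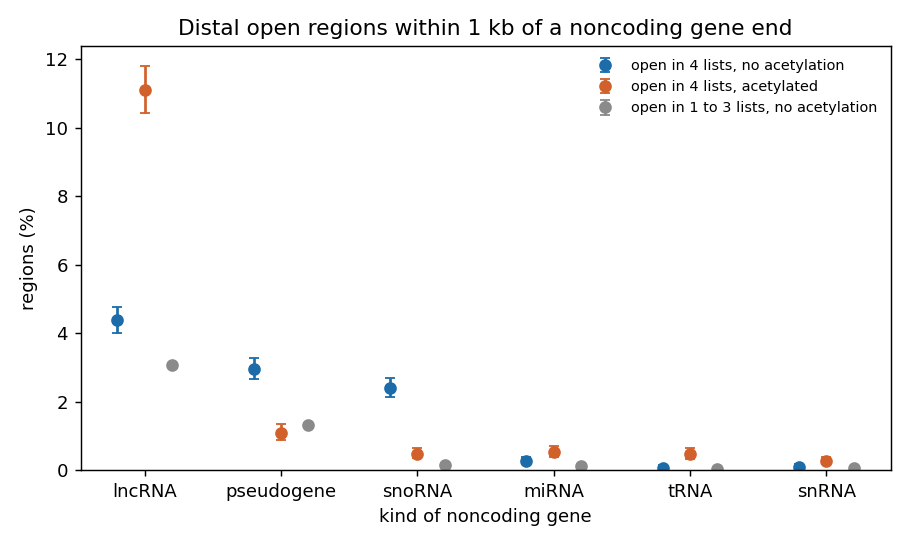
Percent of distal open regions within 1 kb of an end of a noncoding gene, by kind of gene and for 3 sets of regions, with 95% Wilson intervals that cover counting error only. Long noncoding RNA genes are near 11.1% of the acetylated and 4.37% of the unacetylated constitutive regions, and snoRNA genes near 0.474% and 2.40%.

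Seen from the genes, 272 of 1340 annotated snoRNA genes (20.3%) had such a site, against 40 (2.99%) with an acetylated constitutive region. They lay on 19 chromosomes, with at most 23 on 1 chromosome. Of the 861 snoRNA genes of 120 to 150 bp, 263 had a site (30.5%, 95% Wilson interval 27.6 to 33.7), but only 9 of 447 shorter ones (2.01%, 1.06 to 3.78) and 0 of 32 longer ones. Unacetylated distal regions open in 1 to 3 lists had a similar pattern, at 27.6%, 8.05% and 12.5% of these genes. Of the 272 genes 271 carry a serial name beginning with Gm or LOC, against 1198 of all 1340. Such a name is given to a gene model without an established symbol.

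The summits of the open region lay to 1 side of these genes, although the region itself overlapped the gene at 161 of 272 (59.2%). The distance between the centre of the gene and that of the region had a median of 756 bp, with the middle 50% between 617 and 916 bp. All 4 summits fell on the same side of the gene at 269 of 272. Where the region does not overlap the gene this follows from its position, and no other set of regions was compared. The median distance of the summit was 798 bp for Sham, 807 bp for SNA, 796 bp for Lam and 793 bp for DCA. The regions were wide, with a median of 1389 bp, and their median fold was 2.33, 2.46, 2.19 and 2.34. Only 60 of the 272 lay inside a protein-coding gene. The repeat content of these places and the handling of reads with several matches were not tested, as neither is given in the sources used here.

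**Figure D5:**
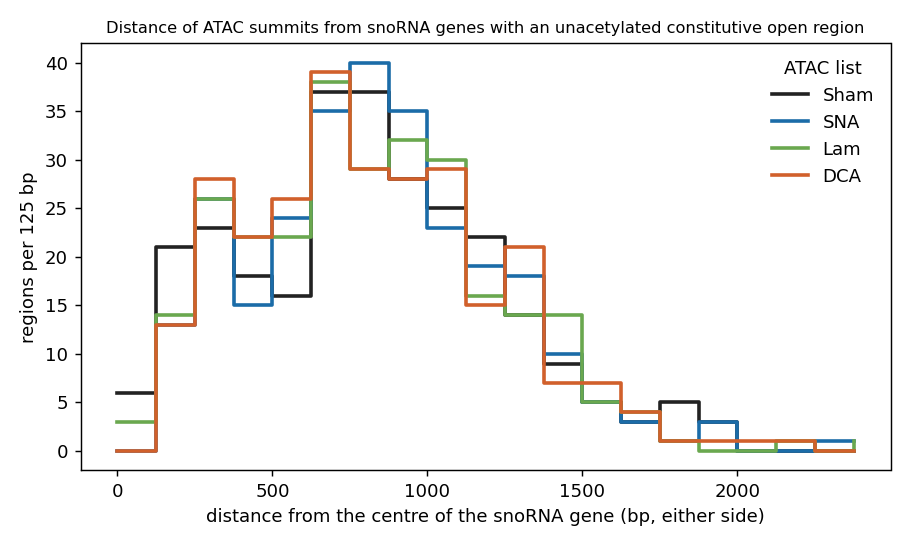
Number of regions per 125 bp of distance between the centre of a snoRNA gene and the strongest ATAC summit of its unacetylated constitutive site, on either side, for 272 genes in each ATAC list (Sham, SNA, Lam, DCA). The 4 lists have the same shape, with medians between 793 and 807 bp.

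The 4 sites of best mean rank among the 272 were at shorter genes. LOC115487268 (72 bp, chromosome 9) is next to the Gm26611 site described above, with its Sham summit 1276.5 bp away. Gm25210 and Gm23446 (94 bp each, chromosome 7) have sites at chr7:59768647-59769130 and chr7:59767394-59767628, of which the first had folds of 3.84, 4.38, 4.06 and 3.82 and summits within 4 bp of each other. Their nearest protein-coding gene is Snurf, of the imprinted Snrpn locus, 213 and 215 kb away. LOC115487271 (72 bp, chromosome 9), 10.5 kb from Trim43a by its site, had folds of 4.83, 3.50, 3.51 and 4.39. These 4 genes are shorter than 120 bp, and they were named after their values were seen.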

How the data were processed

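The series measured H3K9ac, H3K27ac, H3K27me3 by ChIP-seq, and open chromatin by ATAC-seq. The authors deposited 16 peak lists, 1 per assay and surgery, which pool the replicates per the labels. The build is mm10 per the submitters' processing notes; aligner, caller and filters are not given in the sources used here, and read depth is unknown. Fold enrichment, as deposited, is a ratio over the background of the authors' caller. Its −log10 p and −log10 q were taken as deposited by the authors, and the deposited score was not used for a result. These values were used only within a list.

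ATAC intervals listed once per summit were reduced to the summit with the best −log10 p. Peaks overlapping by 1 bp or more were merged, and gene positions came from RefSeq (GRCm38.p6, the same assembly as mm10). Shares have 95% Wilson intervals and differences 95% Newcombe intervals (Python 3.11.15, scipy 1.17.1). The overlap and distance steps and the choice of regions were tested on simulated data, and the Wilson and Newcombe intervals were not. No p-value was computed, since the lists hold no replicates.

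The sites were selected on these peak lists, and the sites, gene lists and motifs were chosen with earlier results of these data known. Named regions are the 10 sites of best mean ATAC rank, the 5 best with H3K27me3 in 4 lists, the 3 on each side of the distance limit, the genes with most sites, and listed genes with at least 3 sites, at most 6 a list, some of which are not reported here; others are said to be named after their values were seen. Of 228 listed genes 227 were found. The planned CTCF search at summits needs a genome sequence and was not run; RefSeq promoter windows took its place.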

Additional observations from a re-analysis of the deposited data

How the results depend on the processing

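Of 108 values recomputed under another setting, 92 were counted as unchanged. For a difference of shares this meant the same sign and an interval on the same side of 0. For a count it meant a similar size, and for a summit range a median at the sites inside the main interval. No difference of shares changed sign, while counts and summit ranges were not scored for sign. The order of the summit ranges turned among regions with a mean rank of 40000 to 80000, with 324 bp at the sites and 351 bp at acetylated regions. The sites numbered 11521, between 11574 and 12141 when 1 acetylation list was not used, and 465 with ATAC peaks of −log10 q of 5 or more only. With H3K27me3 peaks of −log10 p of 3 or more, the excess over acetylated regions fell in every list. It fell from 13.3 to 0.20 points in Sham, from 20.0 to 0.20 in Lam, from 15.98 to 0.053 in SNA and from 6.12 to 0 in DCA. The Sham and Lam values still count as unchanged, since the size of a difference was not scored. Under the other settings the excess stayed above 0 in each list. The median summit range was 312 bp with distances from all RefSeq genes, 258 bp where the 4 peaks share a base, 116.5 bp in regions of 300 to 600 bp and 93 bp with ATAC peaks of −log10 q of 5 or more. Regions chosen by distance from all RefSeq genes have no noncoding gene end within 1 kb by construction (difference 0).

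Within 10 kb in place of 100 kb, 3727 protein-coding genes (17.0%) had a site. None of the clustered protocadherins or Hox genes did (0 and 0). A site was found for 3 glial (15%), 2 macrophage (10%) and 6 regeneration-associated genes (20.7%) and 1 gene of other tissues (4%). It was found for 11 developmental transcription factors (36.7%), 14 sensory neuron genes (56%) and 22 of the long adhesion genes (66.7%).

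No paired analysis was possible because each list pools its replicates, and for the same reason leaving out a replicate was not run. The CTCF search at summits, with its alternatives, was not run. The settings by ATAC rank, by 600 to 900 bp, by autosomes, by acetylation list and by promoter window were chosen after seeing the data. Depth per list is unknown, so a missing peak is not evidence of a missing mark.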

Other observations

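The sites were spread evenly over the autosomes, where 2.60% to 3.65% of the merged regions of a chromosome qualified. The X chromosome had 19 sites and the Y chromosome 6. X also held few ATAC peaks in every list, 463 for Sham, 554 for SNA, 433 for Lam and 466 for DCA, or 0.274% to 0.317% of a list, although 2512 of the annotated genes lie on it. The 2 strongest sites of all are among its 19.

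The sites lay farther apart than the acetylated constitutive regions. The gap to the next site had a median of 40115 bp, against 23725 bp from one acetylated region to the next. At the other end of the scale, the 11 sites nearest to Olfr161 lay between chr16:3231570 and chr16:3283461, and each carried an H3K27me3 peak in all 4 lists. Their folds in Sham ran from 1.83 to 3.55.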
